A study of Mus musculus with 7 samples.

Results

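Kinesins are motor proteins that use ATP to walk along microtubules or to take them apart. The family described here holds the protein-coding mouse genes whose symbol is Kif followed by a digit, in the GENCODE M21 annotation, and 39 of the 46603 Ensembl genes in the count files met that rule. By their textbook roles, 12 are mitotic kinesins, 13 are transport kinesins, 6 belong to cilia and 8 have another or a mixed role. All were measured by RNA-seq in 7 pieces of tumors, 3 from NM1 KO cells and 4 from KO+NM1 cells.

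The NM1 KO line was made from mouse embryonic fibroblasts (MEFs) by knocking out nuclear myosin 1, an isoform of the gene Myo1c, with CRISPR/Cas9. KO+NM1 denotes this line after transduction with a lentivirus that carries NM1 tagged with HA and V5, selected with neomycin and taken as single clones, so both groups carry the knockout and they differ by the construct and by that selection. The promoter that drives the construct is not given in the sources used here. Cells were injected into female Balb/c nude mice aged 16 weeks, which lack a thymus but keep B cells, macrophages, vessels and stroma of their own. The study names the mammary pads as the site in its results and the skin of the right flank in its methods. Tumors were removed after 30 days according to the labels, while the study's text gives a slightly shorter time. Each tumor was cut into 4 pieces that were homogenized separately, and 3 KO and 4 KO+NM1 pieces were sequenced. The labels give 1 tumor for each condition, so each SD and p-value here covers the spread between pieces and may hold no difference between mice. Injected cells and host cells were not separated. Libraries held 24088309 to 28326568 counts.

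Mitotic kinesins are made when a cell prepares to divide. They push spindle poles apart, carry chromosome arms, trim microtubule ends at the kinetochore and build the midzone where the cell divides. Transport kinesins work in dividing and resting cells alike and carry vesicles, mitochondria and ciliary cargo along microtubules. In a mixed tissue, a lower level of a mitotic kinesin can mean fewer dividing cells or less RNA in each of them, and bulk RNA cannot tell these apart.

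Genes of the late cell cycle often share a short promoter element known as the cell cycle genes homology region (CHR), with a CCAAT box a short way upstream, and the promoters of the kinesins were searched for both. The stretches are shown because the mitotic kinesins moved together, and the search was made with their values known. RefSeq promoter windows on GRCm38.p6, of 250 bases before and 50 after a start, matched 32 of the 39 kinesins. Searched on either strand were the hexamers TTTGAA and TTCGAA for the CHR and the pentamer CCAAT for the CCAAT box, so a match on the opposite strand reads TTCAAA or ATTGG. No printed match overlaps another, and Kif20b held 2 copies of TTTGAA in tandem. Printed below are 95 bases before and 25 after the start, read 5′ to 3′ along the gene, with each match in capitals, for the 7 mitotic kinesins whose CHR hexamer lay at or after position -60 from the start.
Kif11, chr19:37376287-37376406, plus strand: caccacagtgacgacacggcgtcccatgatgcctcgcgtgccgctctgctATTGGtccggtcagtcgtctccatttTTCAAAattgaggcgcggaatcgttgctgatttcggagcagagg
Kif15, chr9:122950986-122951105, plus strand: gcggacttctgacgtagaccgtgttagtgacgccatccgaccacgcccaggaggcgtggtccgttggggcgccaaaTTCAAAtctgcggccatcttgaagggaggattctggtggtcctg
Kif4, chrX:100625970-100626089, plus strand: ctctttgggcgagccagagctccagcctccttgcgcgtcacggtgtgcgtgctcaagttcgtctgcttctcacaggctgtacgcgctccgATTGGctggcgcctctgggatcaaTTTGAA
Kif22, chr7:127042396-127042515, minus strand: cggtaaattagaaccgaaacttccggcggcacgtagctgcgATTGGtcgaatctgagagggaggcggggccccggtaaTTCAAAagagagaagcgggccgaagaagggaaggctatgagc
Kif18b, chr11:102925100-102925219, minus strand: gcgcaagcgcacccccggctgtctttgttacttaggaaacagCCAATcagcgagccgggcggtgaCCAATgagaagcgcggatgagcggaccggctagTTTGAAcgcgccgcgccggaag
Kif20b, chr19:34922263-34922382, plus strand: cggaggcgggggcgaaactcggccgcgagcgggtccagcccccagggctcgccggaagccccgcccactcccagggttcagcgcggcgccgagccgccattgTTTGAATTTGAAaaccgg
Kif23, chr9:61946775-61946894, minus strand: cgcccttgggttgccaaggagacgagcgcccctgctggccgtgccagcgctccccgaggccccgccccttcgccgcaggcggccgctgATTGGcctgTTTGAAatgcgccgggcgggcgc

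Such a hexamer in that part of the window was found in 7 of 11 windows of mitotic kinesins (63.6%), in 1 of 12 windows of transport kinesins (8.33%) and in 5.9% of all 32851 windows. A CCAAT box anywhere in the window stood beside it in 5 of the 11 mitotic windows (45.5%), in 0 of 12 transport windows and in 2.52% of all windows. In Kif11 the CCAAT box began at -45 and the CHR hexamer at -19. In Kif22 they began at -54 and -17. The Kif18b window had CCAAT boxes at -53 and -30 ahead of a hexamer at 3. Kif15 and Kif20b had the hexamer without a CCAAT box. The windows of Kif18a and Kif2b held no hexamer. Those of Kif14 and Kif2c held one only further upstream, and they start 1505 and 3867 bases from the M21 start of the gene. The starts of the printed windows lie 0 to 51 bases from the M21 gene start, except that of Kif4, which lies 328 bases from it. A match describes the letters only.

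For contrast, the same stretch is printed for Kif3a and Kif3b, the transport kinesins that were higher in KO pieces, and for Kif24 and Kif26b, which are listed as ciliary and other and were also higher there.
Kif3a, chr11:53567274-53567393, plus strand: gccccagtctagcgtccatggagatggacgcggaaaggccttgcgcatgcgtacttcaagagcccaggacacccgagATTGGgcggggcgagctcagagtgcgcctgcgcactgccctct
Kif3b, chr2:153291321-153291440, plus strand: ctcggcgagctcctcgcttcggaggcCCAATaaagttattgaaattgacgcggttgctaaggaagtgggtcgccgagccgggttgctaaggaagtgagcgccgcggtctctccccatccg
Kif24, chr4:41464824-41464943, minus strand: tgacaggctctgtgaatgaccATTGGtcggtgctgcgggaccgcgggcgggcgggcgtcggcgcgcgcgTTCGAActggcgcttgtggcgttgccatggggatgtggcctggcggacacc
Kif26b, chr1:178529030-178529149, plus strand: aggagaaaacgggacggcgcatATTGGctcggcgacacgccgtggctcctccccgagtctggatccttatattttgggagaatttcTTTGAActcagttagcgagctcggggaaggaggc

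Kif3a and Kif3b each held a CCAAT box, at -18 and -69, and no CHR hexamer in the window. Kif24 had a TTCGAA at -26 and a CCAAT box at -74, and Kif26b had a TTTGAA at -9 and a CCAAT box at -73. Outside the mitotic class these were the 2 kinesins with both elements placed in this way. Kif2a, listed as other and also higher in KO pieces by more than 2-fold, held no CHR hexamer and no CCAAT box in its windows.

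The comparison asked how the tumors of KO cells differ in transcription from those of KO cells given NM1 back, and for this family whether motors of division and motors of transport move alike. Counts were compared by edgeR's quasi-likelihood test across 16887 genes, with p adjusted after Benjamini and Hochberg and fold changes taken as KO over KO+NM1. A gene is said to rise or fall in KO where that p was under 0.05 and the change was 2-fold or more. Levels are counts-per-million (CPM) values scaled by TMM. Of all genes tested, 17.1% rose and 20.3% fell. At the adjusted p alone 25.7% were higher and 24.5% lower in KO, and in 30.5% every KO piece was above every KO+NM1 piece and in 26.4% below. For the other criteria used here, the shares higher and lower were 28.9% and 27.9% at an unadjusted p under 0.05, 16.3% and 23.4% past both thresholds by DESeq2, and 24.3% and 23.6% past both by limma voom with sample quality weights. Of the 39 kinesins 35 were tested, and 16 rose, 2 fell and 17 passed neither way. The 4 left out by the filter on low counts were Kif2b, a spindle kinesin of the testis listed at 0 counts in every piece, Kif6 with 0 to 11 counts, and Kif12 and Kif28 with 0 or 1.

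All 11 mitotic kinesins tested rose in KO pieces, by a median of 5.23 on the log2 scale. They ranged from 3.89 for Kif18a to 6.69 for Kif4, beside a median of -0.00 over all genes tested. Of the 13 transport kinesins, 2 rose and 1 fell, with a median of 0.51 and a range of -2.09 to 1.72. The lowest fold change among the mitotic kinesins was above the highest among the transport kinesins. Each mitotic kinesin was higher in every KO piece than in any KO+NM1 piece, and this was so for 5 transport kinesins, while 1 was lower throughout. Over all genes tested, 30.5% were higher and 26.4% lower in this way. Kif11, Kif18b, Kif20b, Kif22, Kif23 and Kif2c are among the cell division genes that the study chose on these libraries for their size of change, so they are no independent evidence of the direction. The other mitotic kinesins were measured in the same pieces, and the class was chosen with earlier results of these data known. They are therefore not independent evidence either.

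**Figure D1:**
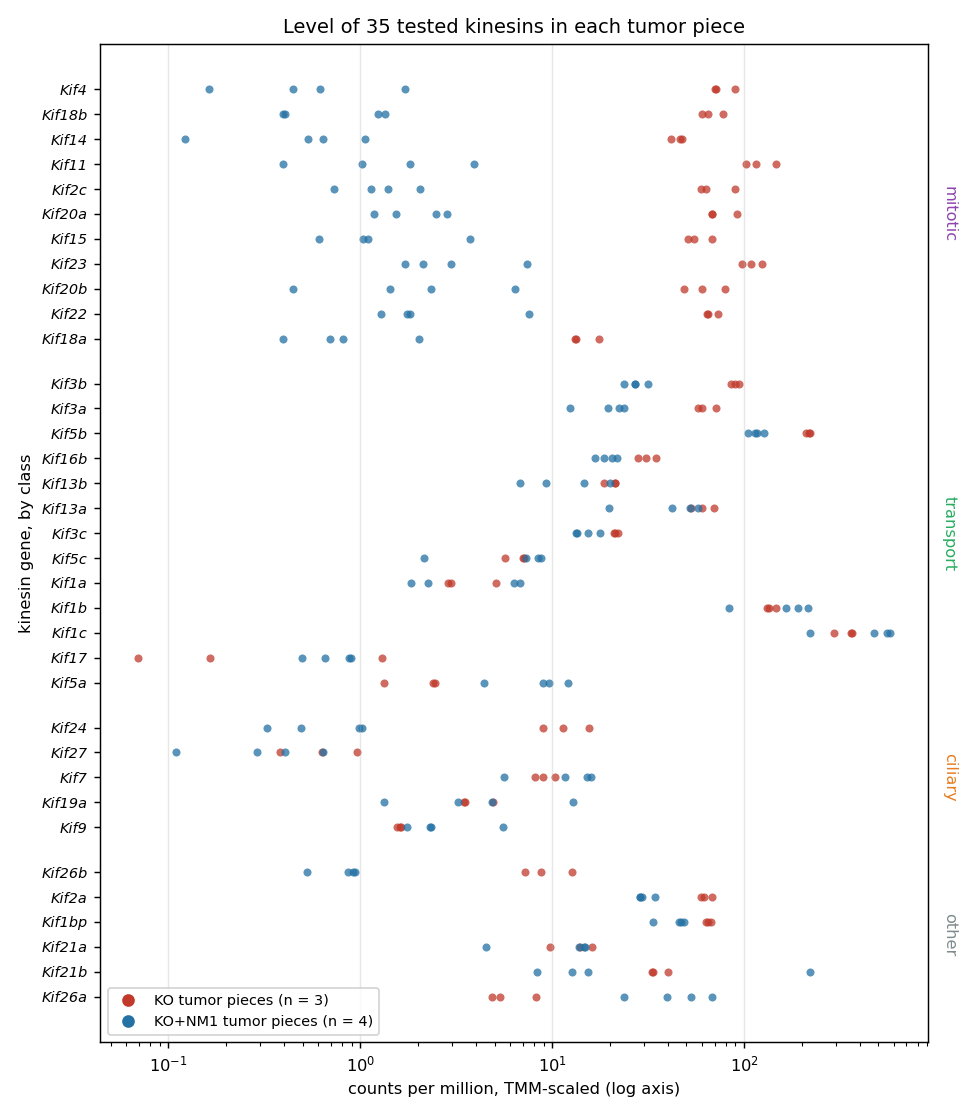
Counts-per-million values (log axis) of the 35 tested kinesins in each tumor piece, grouped by class and ordered by fold change. Red points are the 3 KO pieces and blue points the 4 KO+NM1 pieces. The groups of points are far apart for each of the 11 mitotic kinesins and close or mixed for most transport kinesins.

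Spindle assembly rests on Kif11, the motor that slides the poles apart, and on Kif15, which can stand in for it. Kif11 was at 147, 102 and 115 CPM in the KO pieces and at 3.90, 1.02, 0.395 and 1.81 in KO+NM1 pieces 01 to 04. All KO pieces lay far above all KO+NM1 pieces, 67.3-fold by the fit, with a log2 fold change of 6.07 ± 0.63 (SE) and an adjusted p of 0.000949 (edgeR). Kif15 was at 67.9, 54.5 and 51.0 CPM in KO and at 3.72, 0.610, 1.09 and 1.03 in KO+NM1, a log2 fold change of 5.15 ± 0.58 with an adjusted p of 0.0011. In both genes KO+NM1 piece 01 was the highest of its group.

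Chromokinesins hold chromosome arms. Kif4, which condenses chromosomes and then organizes the spindle midzone, had the largest fold change of the 35 tested. It was at 89.6, 71.6 and 70.3 CPM in KO and at 1.71, 0.163, 0.445 and 0.617 in KO+NM1, where piece 02 held 4 counts. The fitted difference was 103-fold, or 6.69 ± 0.62 on the log2 scale, with an adjusted p of 0.000694. Of its exon bases 15.1% are shared with Pdzd11 on the opposite strand. Kif22, which pushes chromosome arms toward the spindle equator, was at 73.1, 63.8 and 64.7 CPM in KO and at 7.59, 1.75, 1.28 and 1.81 in KO+NM1. Its log2 fold change was smaller at 4.42 ± 0.61, with an adjusted p of 0.00196, and its value in KO+NM1 piece 01 stood above the other 3.

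The motors that shorten microtubules or damp their ends are Kif2c, also called MCAK, which corrects wrong kinetochore attachments, Kif18a, which keeps chromosomes aligned, and Kif18b, which works with Kif2c on astral microtubules. Kif2c was at 89.1, 63.0 and 59.5 CPM in KO and at 2.04, 0.732, 1.14 and 1.40 in KO+NM1, with a log2 fold change of 5.72 ± 0.34 and an adjusted p of 0.000229. Kif18b was at 77.9, 60.2 and 64.6 CPM against 1.35, 0.407, 0.395 and 1.23, a log2 fold change of 6.30 ± 0.45 with an adjusted p of 0.000364. Kif18a had the lowest level per length of the 11 tested members in KO and was at 17.6, 13.2 and 13.3 CPM there, against 2.01, 0.814, 0.395 and 0.699 in KO+NM1. Its rise of 3.89 ± 0.52 was the smallest of the class and had an adjusted p of 0.00155. No piece of KO overlapped a piece of KO+NM1 in these 3 genes.

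Cytokinesis uses Kif23, the motor subunit of centralspindlin, Kif20a, which brings the chromosomal passenger complex to the midzone, Kif20b, which acts in abscission, and Kif14, which holds citron kinase at the midbody. Kif23 was at 124, 109 and 97.2 CPM in KO and at 7.40, 1.71, 2.12 and 2.96 in KO+NM1, a log2 fold change of 4.95 ± 0.49 with an adjusted p of 0.000765. Kif20a was at 91.7, 67.9 and 68.0 CPM against 2.48, 1.18, 1.53 and 2.84, which gave 5.23 ± 0.32 and an adjusted p of 0.000229. Since 29.3% of its exon bases are shared with Cdc23 on the other strand, some of its reads are uncertain. Kif20a was also the 1 mitotic kinesin whose highest KO+NM1 value was not in piece 01. Kif20b was at 79.0, 48.3 and 59.9 CPM against 6.42, 1.42, 0.445 and 2.34, and its log2 fold change of 4.54 ± 0.74 had the largest error of the class, with an adjusted p of 0.00355. Kif14 was at 47.3, 46.5 and 41.7 CPM against 1.06, 0.122, 0.642 and 0.534, where piece 02 held 3 counts, and its log2 fold change was 6.24 ± 0.53 with an adjusted p of 0.000527.

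The KO pieces held 379 to 4405 counts of each mitotic kinesin and the KO+NM1 pieces 3 to 208. Summed over the 11 genes, the level was 904, 700 and 705 CPM in KO and 39.7, 9.93, 9.88 and 17.3 in KO+NM1. KO+NM1 piece 01 was the highest of its group in 10 of the 11. This piece stands apart from the other 3 as a whole, with correlations of log2 CPM of 0.855 to 0.861 against 0.966 to 0.986 for all other pairs within a group. It also held 6390 CPM of 10 B cell marker genes, where the other KO+NM1 pieces held 4.93 to 24.3 and KO pieces 31.1 to 71.6. Without it, all 11 mitotic kinesins still rose, with a median of 5.87.

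**Figure D2:**
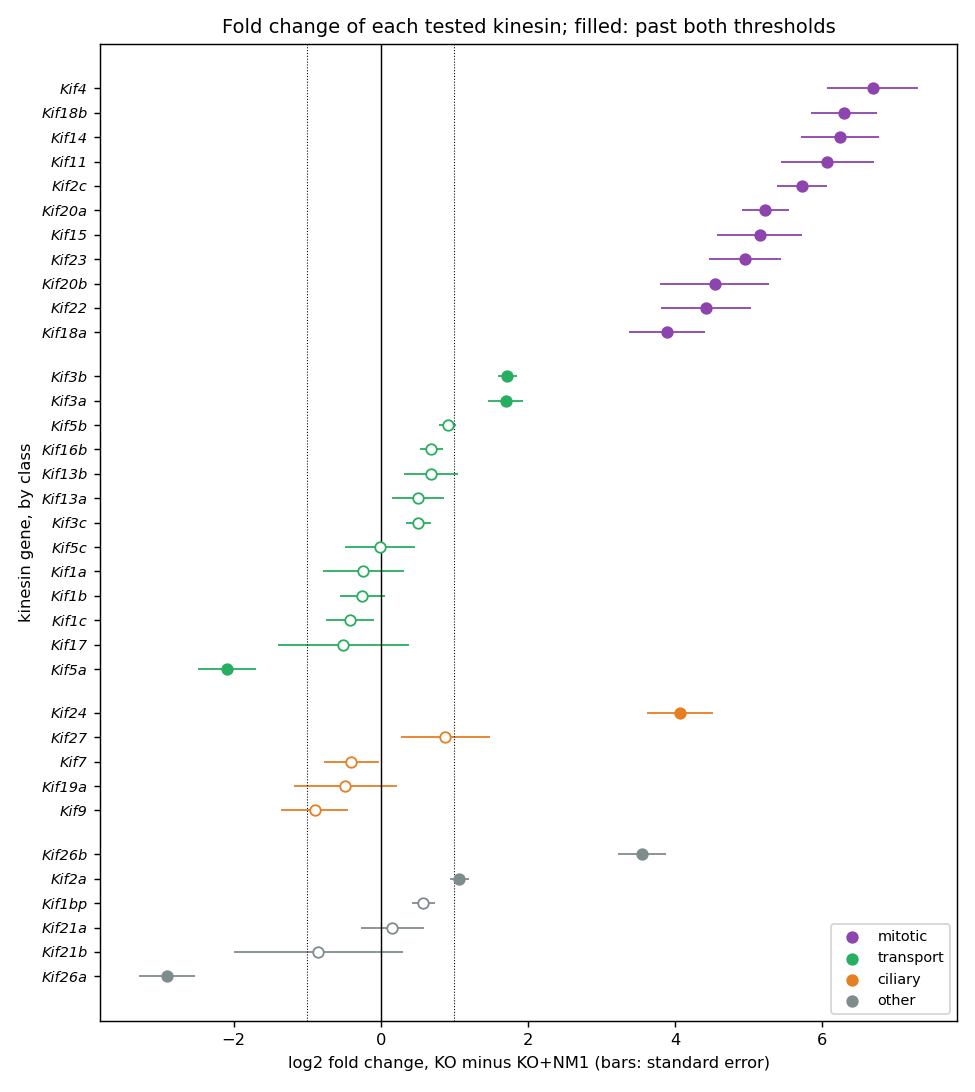
Log2 fold change of each tested kinesin, KO minus KO+NM1, with its standard error as a bar. Filled points passed both thresholds, and dotted lines mark a 2-fold change. The 11 mitotic kinesins lie between 3.89 and 6.69, to the right of every other kinesin apart from Kif24 at 4.07.

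Kinesin-1, the classic carrier of vesicles and mitochondria, is built on Kif5a, Kif5b or Kif5c. Kif5b, the form made in most tissues, was at 218, 209 and 221 CPM in KO and at 104, 117, 126 and 114 in KO+NM1. The groups did not overlap, and the log2 fold change of 0.91 ± 0.12 had an adjusted p of 0.00135, but it stayed under the 2-fold threshold. Kif5a, the neuronal form, was at 1.33, 2.40 and 2.44 CPM in KO and at 4.41, 9.56, 8.99 and 12.1 in KO+NM1. It was the transport kinesin that fell, by 2.09 on the log2 scale with an SE of 0.40 and an adjusted p of 0.00649. Kif5c, also neuronal, was at 7.03, 5.67 and 7.10 CPM against 2.15, 8.71, 7.26 and 8.47, a log2 fold change of -0.01 ± 0.47 with an adjusted p of 0.989.

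Markers of nerve tissue moved between the groups beside Kif5a. Of 10 Schwann cell markers 6 fell and 1 rose, where 20.3% of all genes tested fell and 17.1% rose. Their summed level was 133 to 145 CPM in KO and 230 to 604 in KO+NM1. Sox10, a transcription factor on that list, fell by 7.84 on the log2 scale and S100b fell by 7.57. How much of the level of either gene came from Schwann cells was not tested. Ncam1 rose by 1.68. The Schwann cell markers Prx, Egr2 and Cdh19 passed neither way, at -0.21, -0.09 and -0.91 on the log2 scale, and their groups overlapped. Of 10 neuronal markers 7 were tested, 3 rose and 3 fell, summing to 50.7 to 65.9 CPM in KO and 22.9 to 29.9 in KO+NM1. Tubb3 rose by 7.64, while Stmn2 fell by 3.58 and Map2 fell by 2.00. Of the tested neuronal markers with a mean under 5 CPM, Nefl and Elavl4 rose, Elavl3 fell and Syt1 passed neither way. Snap25, Nefm and Rbfox3 did not pass the filter on low counts. The part of Schwann cells and neurons in the change of Kif5a was not tested.

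Kinesin-2 moves cargo into cilia as a trimer of Kif3a, Kif3b and the adaptor Kifap3, and moves other cargo as Kif3a with Kif3c, while Kif17 works as a pair of its own kind. Kif3a was at 71.4, 57.5 and 60.4 CPM in KO and at 12.3, 19.6, 22.2 and 23.6 in KO+NM1, and rose by 1.70 ± 0.24 with an adjusted p of 0.00154. Kif3b was at 93.9, 85.7 and 90.0 CPM against 31.4, 23.6, 27.1 and 27, and rose by 1.72 ± 0.13 with an adjusted p of 0.000319. The partners thus rose by 3.25-fold and 3.29-fold, with no overlap between the groups.

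The third member of that trimer, Kifap3, was at 25.1, 26.6 and 31.4 CPM in KO and at 18.2, 35.5, 36.9 and 31.0 in KO+NM1, with overlapping groups and a log2 fold change of -0.14 ± 0.26 (adjusted p = 0.69). Kif3c was at 21, 22.0 and 21.1 CPM against 13.3, 15.3, 13.4 and 17.8. Its groups did not overlap, and a log2 fold change of 0.51 ± 0.17 passed the adjusted p alone at 0.0386, which it lost in 6 of the 7 fits without 1 piece. As 40.7% of its exon bases are shared with genes on the opposite strand, this value is uncertain. Kif17 was near the floor, with 39, 2 and 5 counts in KO and 10 to 24 in KO+NM1, and its log2 fold change was -0.51 ± 0.89 with an adjusted p of 0.657. The value turned on KO piece 01: without it Kif17 was at -2.70 with an adjusted p of 0.0183, and by limma voom with sample quality weights at -2.13 with an adjusted p of 0.0113.

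The kinesin-3 group carries vesicles and includes Kif1a, Kif1b and Kif1c, the endosomal motors Kif13a and Kif16b, and Kif13b. Kif1c was at 295, 361 and 363 CPM in KO and at 220, 554, 577 and 472 in KO+NM1. KO+NM1 piece 01 was the lowest of the 7 and its companions the highest, and the log2 fold change of -0.42 ± 0.33 had an adjusted p of 0.326. Kif1b showed the same order of pieces, at 134, 131 and 146 CPM against 83.2, 190, 215 and 165, with -0.25 ± 0.31 and an adjusted p of 0.524. Without KO+NM1 piece 01, Kif1c was at -0.78 with an adjusted p of 0.00219 and Kif1b at -0.60 with an adjusted p of 0.00422, past the adjusted p alone but under the 2-fold threshold. Kif1a, the carrier of synaptic vesicle precursors, was low in both groups, at 2.87 to 5.10 CPM in KO and 1.83 to 6.82 in KO+NM1, with a log2 fold change of -0.24.

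Kif16b was at 27.9, 34.9 and 30.8 CPM in KO and at 16.6, 18.6, 21.8 and 20.4 in KO+NM1, apart in every piece, and its 0.69 ± 0.16 passed the adjusted p alone at 0.0111, though at 0.105 and 0.0775 it did not without KO piece 02 or 03. Kif13a was at 53.1, 69.4 and 60.3 CPM against 19.7, 41.9, 52.2 and 57.6, with overlapping groups, a log2 fold change of 0.51 and an adjusted p of 0.258. Kif13b was at 18.7, 21.1 and 21.2 CPM against 9.26, 6.79, 19.9 and 14.7, also overlapping, with 0.68 and an adjusted p of 0.16. By the adjusted p alone, 5 of the 13 transport kinesins were higher in KO and 1 was lower, beside 25.7% and 24.5% of all genes tested. KO+NM1 piece 01 was the lowest of its group in 9 of the 13, and without it the median over the class was 0.14 in place of 0.51.

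Of the 6 kinesins known from cilia, 5 were tested and 1 rose. Kif24, a microtubule depolymerase of the mother centriole that holds back cilia, was at 15.6, 8.93 and 11.4 CPM in KO and at 1.02, 0.325, 0.988 and 0.493 in KO+NM1. It rose by 4.07 ± 0.45 with an adjusted p of 0.000916, a size inside the range of the mitotic kinesins. The other 4 were Kif27 at 0.88, Kif7, the regulator of Hedgehog signaling at the cilium tip, at -0.40, Kif19a, which sets the length of motile cilia, at -0.48, and Kif9, a motor of motile cilia, at -0.90, with adjusted p from 0.139 to 0.593. Of Kif7's exon bases 20.3% are shared with Ticrr and 9330171B17Rik on the opposite strand, and without KO+NM1 piece 01 Kif7 was at -0.77 with an adjusted p of 0.00686. In Kif9 the KO pieces, at 1.55 to 1.63 CPM, lay below the KO+NM1 pieces at 1.75 to 5.54. Markers of motile ciliated cells summed to 5.22 to 7.77 CPM over all pieces, and Dnah5 was at 0 throughout. Of the 10 markers listed, 8 were found among the counted genes and 3 were tested. Rsph1 rose by 2.52 on the log2 scale, with means of 3.81 CPM in KO and 0.658 in KO+NM1. Foxj1 at -1.95 and Ccdc39 at -0.41 passed neither way.

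Of the 8 kinesins with another role, 6 were tested, 2 rose and 1 fell. Kif26b, which acts in kidney development and cell adhesion, was at 8.77, 7.19 and 12.7 CPM in KO and at 0.912, 0.529, 0.939 and 0.863 in KO+NM1, and rose by 3.55 ± 0.33 with an adjusted p of 0.000517. Its paralog Kif26a, known for restraining growth factor signals in enteric neurons, went the other way. It was at 4.83, 8.2 and 5.35 CPM against 23.5, 67.7, 52.9 and 39.6, and fell by 2.90 on the log2 scale with an SE of 0.38 and an adjusted p of 0.00169. The groups were apart in both genes. Per length (transcripts-per-million, TPM), Kif26a and Kif26b were at 3.07 ± 0.910 and 2.25 ± 0.630 in KO (SD, n = 3) and at 16.4 ± 5.59 and 0.143 ± 0.0479 in KO+NM1 (SD, n = 4).

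Kif2a, a kinesin-13 depolymerase used both in spindles and in neurites, was at 67.8, 59.6 and 61.9 CPM in KO and at 34.2, 28.5, 28.5 and 29.4 in KO+NM1. Its log2 fold change of 1.07 ± 0.13 (adjusted p = 0.00094) only just passed the 2-fold threshold and dropped to 0.90 to 0.99 in 6 of 16 alternatives, among them each fit without 1 of the KO pieces. Of its exon bases 19.2% are shared with Dimt1 on the opposite strand. Kif2c, of the same kinesin-13 group, had a log2 fold change of 5.72. Kif1bp, which codes for a binding protein of kinesins and not a motor, was at 67.5, 63.4 and 64.8 CPM against 33.3, 48.7, 45.8 and 46.8, and its 0.58 ± 0.16 passed the adjusted p alone at 0.0199, though not without any 1 of the KO pieces (0.106 to 0.127). Kif21a had a log2 fold change of 0.16 with an adjusted p of 0.781.

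The level of Kif21b, a motor that paces microtubule growth in neurons and lymphocytes, turned on 1 piece. It was at 33.0, 33.4 and 39.9 CPM in KO and at 219, 8.30, 12.6 and 15.3 in KO+NM1, so that piece 01 was above every KO piece and the other 3 were below. With all pieces the log2 fold change was -0.85 ± 1.15 with an adjusted p of 0.577. Without KO+NM1 piece 01 it was 1.43 with an adjusted p of 0.00122, and by limma voom with sample quality weights it was 1.76 with an adjusted p of 0.000602. Of the 10 B cell markers, 0 passed the test by edgeR with all pieces, where 1 had an unadjusted p under 0.05, 0 passed by DESeq2, and 5 were higher in KO by limma voom, beside the 24.3% of all genes that were. Cd79a, a subunit of the B cell receptor, was at 1290 CPM in piece 01 and at 1.83, 4.79 and 1.03 in the others, and at 2.47 to 12.3 in KO. The part of B cells in the level of Kif21b was not tested.

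**Figure D3:**
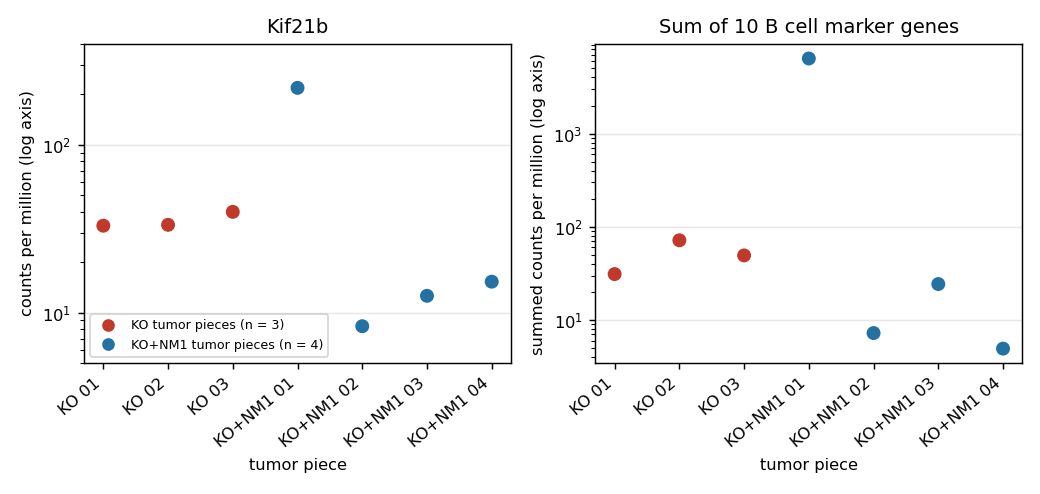
Kif21b in counts-per-million (left) and the summed counts-per-million of 10 B cell marker genes (right), both on log axes, in each tumor piece. KO pieces are red and KO+NM1 pieces blue. In both panels KO+NM1 piece 01 is the highest of the 7, at 219 and 6390 CPM.

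To set the levels of different kinesins side by side, counts were divided by exon length and expressed as TPM. Kif1c and Kif5b were the top kinesins in both tumors, at 162 ± 16.3 and 94.0 ± 2.63 TPM in KO (SD, n = 3) and 155 ± 44.2 and 37.1 ± 5.46 TPM in KO+NM1 (SD, n = 4), with no overlap between these neighbours or with the third. In KO pieces they were followed by Kif18b, Kif3a, Kif20a, Kif11, Kif2c, Kif3b, Kif4, Kif23 and Kif22, from 65.7 down to 47.5 TPM, and each of these neighbours overlapped the next. In KO+NM1 pieces the third to the fifth places were held by Kif1b at 22.9, Kif1bp at 22.8 and Kif26a at 16.4 TPM, which overlapped, and the most abundant mitotic kinesin, Kif22, was in place 20 at 1.82 ± 2.02 TPM.

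Mitotic kinesins made up 48.6%, 41.5% and 41.2% of all kinesin TPM in the KO pieces and 5.63%, 1.05%, 1.01% and 2.00% in the KO+NM1 pieces. In summed level they were at 453 ± 77.2 TPM in KO and 8.87 ± 7.59 in KO+NM1. Transport kinesins were at 458 ± 6.20 TPM in KO and 275 ± 59.3 in KO+NM1, and their share was 44.6% ± 3.64 and 74.4% ± 10.6. In CPM scaled by TMM, the scaling used for the tests, transport kinesins summed to 948, 1000 and 1030 in KO. In KO+NM1 pieces 01 to 04 they summed to 524, 1010, 1090 and 940 CPM. Only piece 01 lay far below the KO pieces in this sum. Kif1c alone held 220, 554, 577 and 472 CPM of it. The median log2 CPM over the 13 transport kinesins was 4.81 to 5.13 in KO and 3.75 to 4.45 in KO+NM1. By that median every KO+NM1 piece was below every KO piece. The whole family summed to 1030 ± 73.8 TPM in KO and 369 ± 52.7 in KO+NM1, and no KO+NM1 piece reached a KO piece. Mitochondrially encoded genes took 1.81% to 2.14% of counts in KO and 5.11% to 18.5% in KO+NM1. TPM is a share of the whole, so a larger share of these genes lowers the TPM of the others. Its part in the differences of summed TPM was not tested.

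**Figure D4:**
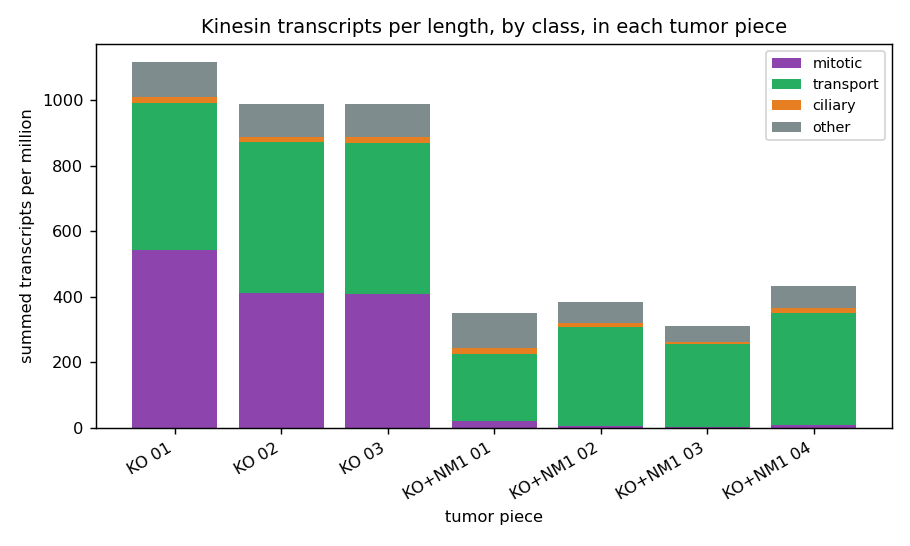
Summed transcripts-per-million (TPM) of the kinesin classes in each tumor piece, as stacked bars from 0. Mitotic kinesins fill 41.2% to 48.6% of the bar in the 3 KO pieces and 1.01% to 5.63% in the 4 KO+NM1 pieces.

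The kinesins were then set beside the proteins they work with. All 20 mitotic partner genes, among them Prc1, Tpx2, Aurkb, Plk1 and Cdk1, rose, with a median of 5.16 and a range of 3.37 to 6.30. Bub1, a kinase of the spindle checkpoint, rose by 6.30 ± 0.73 with an adjusted p of 0.00133, and Top2a, which untangles DNA, by 6.27 ± 0.68 with an adjusted p of 0.00118. The summed partner level was 3080 to 3890 CPM in KO pieces and 191, 51.6, 49.5 and 72.9 in KO+NM1 pieces, with piece 01 the highest as for the kinesins.

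The median log2 CPM of these partners, with a prior count of 2, was 6.70 ± 0.15 in KO and 1.45 ± 1.03 in KO+NM1, 5.24 apart, and each mitotic kinesin was measured against it within the same piece. Kif4 stood 0.37 to 0.50 under the partner median in KO pieces and 1.46 to 3.04 under it in KO+NM1 pieces, a difference of 1.70. Kif11 differed by 1.18 and Kif18b by 1.14 in the same direction, and in these 3 the groups did not overlap. Kif18a and Kif22 went the other way, by -1.23 and -0.46, also without overlap. In Kif14, Kif2c, Kif15, Kif20a, Kif23 and Kif20b the groups overlapped, with differences of 1.09, 0.47, 0.17, 0.01, -0.09 and -0.21. The KO+NM1 values rest on few counts, and the prior count draws low genes toward each other.

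**Figure D5:**
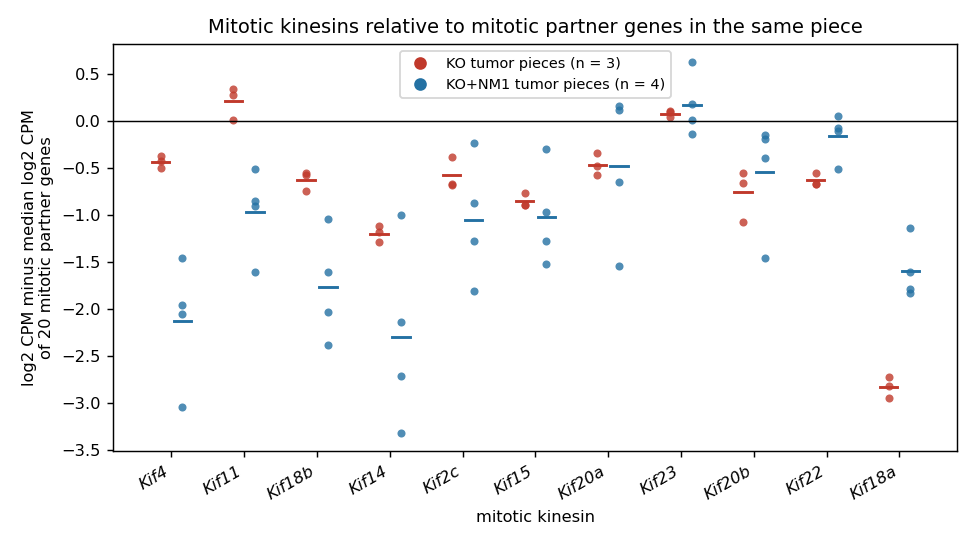
Log2 CPM of each mitotic kinesin minus the median log2 CPM of 20 mitotic partner genes in the same piece. Points are pieces (KO red, KO+NM1 blue), short lines are group means, and 0 is the partner median. Kif4, Kif11 and Kif18b lie lower against the partners in KO+NM1 pieces, and Kif22 and Kif18a lie higher.

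Kinesin motors whose symbols fall outside the rule were 6 in number, and 4 rose and 1 fell. Cenpe, the kinetochore motor that brings chromosomes to the equator, was at 143, 101 and 113 CPM in KO and at 2.99, 1.46, 1.09 and 2.01 in KO+NM1, and rose by 5.96 ± 0.33 with an adjusted p of 0.000225. Kifc1, a minus-end motor that focuses spindle poles, rose by 4.50 and its near copy Kifc5b by 3.43. Reads of this pair may have been split or dropped in counting, so the division between them is uncertain. Stard9, a centrosomal kinesin, rose by 1.15. Kifc2, a minus-end motor of neurons, was at 2.33, 2.64 and 2.74 CPM against 16.2, 20.1, 18.1 and 21.2, and fell by 2.88 on the log2 scale with an adjusted p of 0.000255. Kifc3 had a log2 fold change of 0.60 with an adjusted p of 0.158.

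Few partners of transport kinesins, and no dynein or dynactin gene, passed the test. Of all genes tested, 17.1% rose and 20.3% fell. Of 21 partners of transport kinesins, such as light chains and cargo adaptors, 20 were tested, 0 rose and 1 fell, with a median of -0.13. By the adjusted p alone 3 were higher and 2 lower (edgeR), and at an unadjusted p under 0.05 it was 4 and 4. DESeq2 gave 0 rises and 1 fall, and limma voom 1 and 2. The 1 that fell was Trak1, which links kinesin-1 to mitochondria, at 73.6, 81.2 and 78.9 CPM in KO and at 96.8, 159, 193 and 176 in KO+NM1, with a log2 fold change of -1.0 and an adjusted p of 0.0125. Its relative Trak2 was at 131, 124 and 120 CPM against 67.5, 57.8, 76.3 and 61.1, the opposite direction, with 0.93 ± 0.14 and an adjusted p of 0.00179. Trak2 was chosen after its values were seen.

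Among the kinesin light chains, Klc2 was higher by 0.52 and Klc4 lower by 0.58 on the log2 scale, past the adjusted p alone, and Klc1 and Klc3 did not pass; these were also named with their values known. Of 19 genes of cytoplasmic dynein and dynactin, the motor that walks the other way, 18 were tested and 0 rose or fell, with a median of 0.17. By edgeR 3 were higher and 1 lower both at the adjusted p alone and at an unadjusted p under 0.05, DESeq2 gave 0 calls and limma voom 1 fall. Every KO piece was above every KO+NM1 piece in 8 of the 18 and below in 0, beside 30.5% and 26.4% of all genes. Among the transport partners these counts were 3 and 4. Of 19 intraflagellar transport genes, cargo trains of the Kif3 motor, 3 rose and 0 fell by edgeR and by DESeq2, with a median of 0.07, and at the adjusted p alone 7 were higher and 1 lower. By limma voom 3 rose and 1 fell, and at an unadjusted p under 0.05 in edgeR 8 were higher and 2 lower. Every KO piece was above every KO+NM1 piece in 9 of the 19 and below in 1. The shares of all genes at the adjusted p alone were 25.7% higher and 24.5% lower. Ift80 rose by 1.85 ± 0.21 with an adjusted p of 0.000798 and Ift74 by 1.28 ± 0.29 with an adjusted p of 0.00935.

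The tumors differed widely in markers of several other cell types, whose part in the kinesin levels was not tested. Of 10 white adipocyte markers all fell, and their sum was 115 to 295 CPM in KO and 5080 to 38000 in KO+NM1. All 9 skeletal muscle markers tested rose, from 6.97 to 26.2 CPM in KO+NM1 to 2460 to 20100 in KO. Endothelial markers fell in 10 of 10 and mammary epithelium markers in 7 of 9, while macrophage markers rose in 8 of 10, with sums of 735 to 2590 CPM in KO+NM1 and 3760 to 4290 in KO. Of 10 fibroblast markers, the labelled origin of the cells, 1 rose and 4 fell, and of 7 keratinocyte markers tested 1 rose. These counts stand beside the 17.1% of all genes tested that rose and the 20.3% that fell. The keratinocyte count is near the former. Myo1c itself was at 313, 289 and 306 CPM in KO and at 438, 408, 406 and 382 in KO+NM1, a log2 fold change of -0.43 ± 0.13 with an adjusted p of 0.031. Counts per gene do not separate the NM1 isoform from the other products of Myo1c, so this value does not check the knockout.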

How the data were processed

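The files deposited by the authors hold raw read counts per Ensembl gene, 1 file for each tumor piece, with no normalization. Per the labels and the study's methods, reads were trimmed with Trimmomatic 0.36, aligned to GRCm38 with HISAT2 2.0.4, sorted with SAMtools 0.1.19 and counted with HTSeq. The annotation release and the strand option are not given in the sources used here, so reads of genes that share exons on opposite strands may have been dropped or mixed.

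Of the 46603 genes, 46005 matched a GENCODE M21 symbol. Counts were filtered by filterByExpr (minimum count 10), scaled by TMM and tested by the quasi-likelihood test of edgeR 4.0.16 in R 4.3.3 on 3 KO against 4 KO+NM1 pieces, with Benjamini-Hochberg adjustment over 16887 genes. A floor of 3 counts corresponds to 0.0991 to 0.148 CPM. Pieces of a group were checked for repeats of the same library, and counts of each pair differed by more than sampling noise, with a chi-square per degree of freedom of 35.2 to 687. The biological coefficient of variation was 46.7%. The test was checked on simulated data. It recovered most changes of 3 on the log2 scale, missed more changes of 2 than it found, and found few of 1. A gene that did not pass may therefore still differ. TPM used the union of exons as length, or the longest transcript as an alternative.

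Every mitotic and transport kinesin was named, every tested ciliary and other kinesin, the motors outside the symbol rule, Myo1c, and of each partner list the 2 largest rises and the 2 largest falls that passed, where the mean reached 5 CPM. The family, its classes and all lists were chosen with earlier results of these data known. The alternatives were DESeq2 1.42.0 (size factors or Wald test), library size alone, mitochondrially encoded genes left out, other filters, limma 3.58.1 voom with sample quality weights, no fold threshold, a block for the replicate number, and each piece left out in turn.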

Additional observations from a re-analysis of the deposited data

Results flagged for a closer look

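In the KO+NM1 group of 4 pieces, a gap of 1 piece to its nearest neighbour was compared with the range of the group by Dixon's criterion, on log2 CPM or on percent of kinesin TPM. Of 43 values tested 6 passed its 95% critical value, where chance passes about 1 in 20. Piece 01 was the lowest in Kif5c (gap over range 0.869), Kif21a (0.938) and Kif1bp (0.838) and in the share of kinesin TPM taken by transport kinesins (0.869), and the highest in the share taken by kinesins with another role (0.873). Piece 02 was the lowest in Kif26b (0.851), where it held 13 counts. In CPM, piece 01 was at 2.15 for Kif5c against 7.26 to 8.71 in the other KO+NM1 pieces, at 4.49 for Kif21a against 13.7 to 14.8, and at 33.3 for Kif1bp against 45.8 to 48.7. Transport kinesins took 58.6% of kinesin TPM in piece 01 and 78.5% to 81.5% in the others, and kinesins with another role took 30.6% and 15.2% to 17.2%. In piece 01 Kif21b alone held 56.0 of the 107 TPM of the latter class. Shares of classes are parts of the same total, so they are not independent of each other.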

How the results depend on the processing

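The call of each mitotic kinesin was kept in 159 of 159 refits. With at least 10 counts required in every library only 5 mitotic kinesins were tested, and 5 rose. Of transport kinesins, 5 passed (3 higher, 2 lower) with limma voom and sample quality weights and 6 by the adjusted p alone, in place of 3. Kif3a, Kif3b, Kif5a and Kif26a passed in all 16 alternatives each, Kif24 in 15 of 15 and Kif2a in 10 of 16. With 1 piece left out in turn, 5058 to 7775 genes passed over the whole table in place of 6306, with 11 to 11 mitotic, 3 to 4 transport and 3 to 5 ciliary and other kinesins, and the median was 4.97 to 5.87 for mitotic and 0.14 to 0.59 for transport kinesins, the lowest without KO+NM1 piece 01. The causes were not tested.

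Directions that turned were all of kinesins that had not passed. Kif5c was at 0.21 with library size alone, 0.32 with the replicate block and at 0.01 to 0.13 (0.01, 0.11 and 0.13) without 1 of KO+NM1 pieces 02 to 04, with -0.43 as the lowest value on leaving out a piece. Kif1a was at 0.13 with voom, 0.24 with the block and -0.67 to 0.05 with a piece left out, the highest without KO+NM1 piece 04. Kif19a was at 0.46, 0.03 and 0.21 with voom, with the block and without KO+NM1 piece 01, and Kif21b at 1.76, 0.56 and 1.43. Their lowest values with a piece left out were -0.82 and -1.22. Kif21a was at -0.12 without KO piece 02 and -0.24 without KO+NM1 piece 01, and at most 0.26 with another piece left out. Library size alone moved the median of all genes to 0.17 and DESeq2 size factors to -0.10, and relative to these shifts Kif5c and Kif2a were within 0.1 of their values with TMM.

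The pieces of the 2 groups share replicate numbers, but same-numbered pieces did not deviate together (r = 0.0802, 0.102 and -0.0165), so the numbers do not pair them. With the replicate block 4930 genes passed, with 11 mitotic, 3 transport and 4 ciliary and other kinesins.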
